A study of Mus musculus with 10 samples.

Results

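The genes described here are 36 core members of the RAS, MAPK and PI3K signalling pathways. They were chosen by name, as RAS proteins, the factors that switch them on and off, kinases of the ERK cascade, genes whose transcription ERK drives, and subunits of PI3K with AKT. Feedback inhibitors of the pathway were not among them. Of the 36 genes, 34 had a probe set named by the array annotation supplied, out of 18194 genes measured, and each was read by the probe set whose mean over 10 arrays was highest. Hras and Mapk3 were not named by that annotation and were not analysed here. Tests covered genes brighter than the array median on 2 or more arrays, a filter that 31 members and 11993 genes in all passed. Rasgrp1, Rasgrp3 and Gab1 did not.

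RAS proteins are small GTPases that relay signals from receptor kinases. Exchange factors load them with GTP, and GTPase-activating proteins return them to the inactive GDP-bound form. Active RAS engages RAF kinases, which start the MEK and ERK cascade, and PI3K, which makes the membrane lipid that recruits AKT. In myeloid leukemia the pathway is often activated by mutations that lock NRAS in its GTP-bound form.

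RNA was profiled from cultured mouse leukemia stem cell lines on Affymetrix Mouse Genome 430 2.0 arrays, which report a log2 fluorescence intensity for each probe set. The RH-RAS lines coexpress DNMT3A with the R882H mutation and NRAS-G12D, and 4 lines derived independently of each other were measured untreated. RH-RAS lines 1 and 3 were measured again after 4 days in 1 µM SGC0946, an inhibitor of the histone methyltransferase Dot1l. A single progenitor line transformed by the fusion MLL-AF9 and 3 transformed by the fusion NUP98-JARID1A, none of which was treated, complete the 10 arrays. All lines grew in medium with stem cell factor. The promoters that drive the introduced genes, and any vehicle given to untreated cells, are not stated in the labels. Every RH-RAS line carries the mutant NRAS, so no comparison isolates it.

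All 8 progenitor markers, Kit, Cd34 and Hoxa9 among them, lay above the array median on every array, and all 4 fibroblast genes measured lay below it on every array. RH-RAS lines 1 to 3 resembled each other closely (r over all genes tested 0.995 to 0.997), whereas line 4 correlated with them at 0.986 to 0.988 and the NUP98-JARID1A lines with each other at 0.962 to 0.971. Differentiation markers moved with the groups. The log2 summed level of 11 monocyte and macrophage genes was 12.05 to 13.31 in untreated RH-RAS lines, 15.33 to 15.39 in treated lines, 13.63 in MLL-AF9 and 14.80 to 15.39 in NUP98-JARID1A lines, with Mrc1 and Adgre1 below the median on every untreated RH-RAS array. That of 12 neutrophil genes was 12.50 to 13.37, 13.42 to 13.51, 16.38 and 15.41 to 16.76 in the same order, with S100a8, S100a9, Ltf, Ngp, Camp, Lcn2, Cd177 and Elane below the median on every RH-RAS array. With SGC0946, 10 of the 11 macrophage genes, 2 of the 12 neutrophil genes and 1 of the 8 progenitor genes rose, and 5 progenitor genes fell (limma). Of all genes tested, 6.84% rose and 5.12% fell. In NUP98-JARID1A lines 6 macrophage and 11 neutrophil genes were higher and the macrophage gene Fcgr1 was lower (limma). Of all genes, 32.5% were higher and 18.5% lower there. Of 7 T and NK cell markers 2 fell with SGC0946 and 4 were lower in NUP98-JARID1A lines (limma), as was the B cell marker Cd79b, and 4 lay past the fold below RH-RAS in MLL-AF9. Many of these markers passed the filter only through arrays of the groups where they were higher, so the filter selected them for these differences. They are Mrc1, Adgre1, Mmp8, the neutrophil genes named above, and Cd3g, Cd2 and Gzma among the T and NK cell markers. The log2 summed level of the T and NK cell markers was 11.43 to 12.09 in untreated RH-RAS lines, 10.41 to 10.51 in treated lines, 10.33 in MLL-AF9 and 9.88 to 11.90 in NUP98-JARID1A lines. A summed level follows the brightest genes. The mean log2 intensity of these markers was 7.29 to 8.18, 6.36 to 6.39, 6.10 and 5.92 to 6.45 in the same order. By that measure untreated RH-RAS and NUP98-JARID1A lines did not overlap. For the macrophage genes the mean was 7.24 to 8.53, 10.7 to 10.8, 8.33 and 9.10 to 9.96. There MLL-AF9 lay inside the untreated range, and NUP98-JARID1A lines lay below the treated lines. The part of such shifts in the results that follow was not tested, and in RNA from a culture a change in the share of cells and a change in RNA per cell cannot be told apart.

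The members that passed the test after SGC0946 belonged to different roles, and a member that did not pass is not shown to be unchanged. The exchange factor Rasgrp2 and the GTPase activator Rasa2 fell, and the adaptor Gab2, the PI3K catalytic subunit Pik3cb and the PI3K regulatory subunit Pik3r5 rose. These 5 of 31 members (16.1%) passed the test in limma, where 12.0% of all genes tested did, with 3 higher and 2 lower against 6.84% and 5.12% of all genes. Pik3r5 passed the filter only through treated, MLL-AF9 and NUP98-JARID1A arrays, where it was higher than in untreated RH-RAS lines. Neither the RAS proteins nor any of the 4 kinases and scaffolds tested of the ERK cascade passed. The median difference of the members was 0.08 on the log2 scale, against 0.02 for all genes, and the median absolute difference was 0.31 against 0.19.

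The count rested on each array of lines 1 and 3. Leaving out untreated line 1, untreated line 3, treated line 1 or treated line 3 leaves a group of 1 array. In each of these fits Gab2, Rasa2 and Pik3cb lost their calls, and calls over all genes fell as well. The loss is thus not particular to the members. Over all alternatives run, the log2 change was 0.80 to 1.55 for Gab2, −0.98 to −0.62 for Rasa2 and 1.01 to 1.25 for Pik3cb. With the line as a block 4 members passed, beside 7.22% of all genes, and Pik3cb did not (limma adjusted p = 0.0721). Untreated lines 2 and 4 enter this fit through the spread alone, and 6 members passed without line 2 and 6 without line 4, beside 12.4% of all genes each time. The NUP98-JARID1A lines also enter the spread, and 7 members passed when any single one of them was left out, beside 13.3% to 15.5% of all genes. Both treated arrays lay outside the range of all 4 untreated lines for 17 of 31 members, beside 48.0% of all genes.

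Against untreated RH-RAS lines the NUP98-JARID1A lines differed widely, in the members as in all genes tested. In limma, 19 of 31 members passed (61.3%), where 51.0% of all genes tested did, with 9 higher and 10 lower against 32.5% and 18.5% of all genes. Adaptors and the PI3K subunit Pik3r5 were higher, and 4 of the 5 output genes of ERK, both SOS exchange factors and the PI3K subunits Pik3cd and Pik3r1 were lower. Here too Pik3r5 entered the test only through arrays of the groups where it was higher. Without line 4, 17 members passed, beside 47.7% of all genes. The ranges of the groups did not overlap for 22 of 31 members, beside 54.8% of all genes. The SGC0946 effect and this comparison share the untreated arrays of lines 1 and 3, so their values are set side by side and not counted as support for each other.

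MLL-AF9 was measured on 1 array, which allows no test. By size alone, 7 of 31 members lay at least 1 on the log2 scale from the RH-RAS mean and outside the range of the 4 lines, where 13.0% of all genes did. Rras2, Gab2 and Pik3r5 were above (7.21% of all genes) and Etv4, Etv5, Emp1 and Epha2 below (5.78%). On other probe sets the MLL-AF9 difference was −0.19 for Rras2 and 0.13 for Emp1, so that direction turned with the probe set, and −0.01 and 0.93 for Gab2. In untreated RH-RAS line 4 the same rule, set against lines 1 to 3, picked 1 member, Epha2, beside 1.8% of all genes and 0.867% above lines 1 to 3. No member, and 0.0% of all genes, passed limma for a difference of the SGC0946 effect between lines 1 and 3. At an unadjusted p under 0.05 the counts were 0 members and 17 genes. The change had the same sign in both lines for 29 of 31 members.

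**Figure D1:**
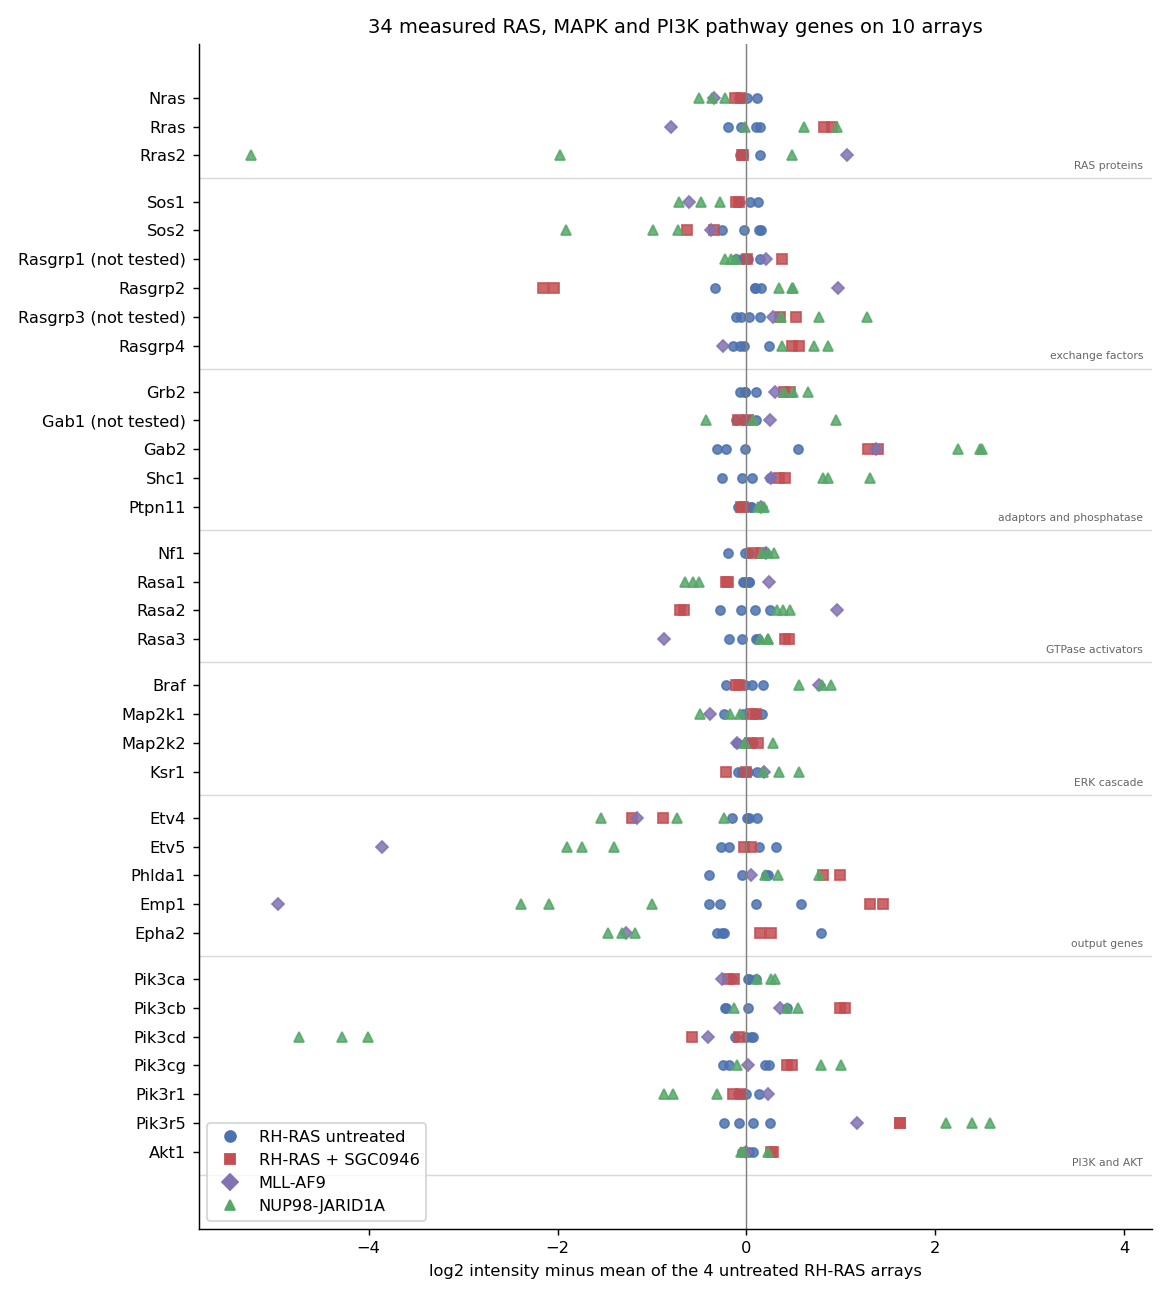
Log2 intensity of each of the 34 measured members on each of the 10 arrays, minus the mean of the 4 untreated RH-RAS arrays (x axis, log2), with genes in rows by role. Most members lie within 1 of the untreated mean in every group, and the widest departures are those of Rras2 and Pik3cd in NUP98-JARID1A lines and of Etv5 and Emp1 in MLL-AF9.

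Of the RAS proteins, Nras varied little between arrays and Rras2 widely. The log2 intensity of Nras, the RAS gene whose mutant form was introduced into RH-RAS cells, was 11.38, 11.43, 11.53 and 11.34 in untreated RH-RAS lines 1 to 4, 11.30 and 11.37 in treated lines 1 and 3, 11.08 in MLL-AF9 and 10.92, 11.19 and 11.06 in NUP98-JARID1A lines 1 to 3. The NUP98-JARID1A lines and MLL-AF9 lay below all 6 RH-RAS arrays, by a small margin. The difference of NUP98-JARID1A from untreated RH-RAS was −0.36 ± 0.09 on the log2 scale (SE, n = 3 and 4 lines, limma adjusted p = 0.0135), and SGC0946 gave −0.12 ± 0.12 (SE, n = 2 and 2 arrays, limma adjusted p = 0.586). The SE of each SGC0946 change also takes in the spread of the NUP98-JARID1A lines and of untreated lines 2 and 4. Another Nras probe set differed by −0.35 and a further one by 0.00. Whether any of them also reads the introduced NRAS is not given in the sources used here.

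Rras2, which encodes the RAS relative TC21, stood at 9.04, 9.07, 9.26 and 9.08 in untreated RH-RAS lines 1 to 4, 9.06 and 9.08 in treated lines 1 and 3, 10.18 in MLL-AF9 and 3.87, 9.59 and 7.14 in NUP98-JARID1A lines 1 to 3. All RH-RAS arrays lay close together, while the NUP98-JARID1A lines fell on both sides of them, with line 1 below the array median and line 2 above every RH-RAS array. The 3 NUP98-JARID1A lines had an SD of 2.87, the largest of any tested member, and their difference from RH-RAS, −2.25 ± 1.14, did not pass (limma adjusted p = 0.140). The other probe set of Rras2 showed the same order of these lines, with log2 intensities of 4.48, 8.56 and 6.42. Rras, another relative, was at 8.92 and 9.01 in treated lines against 7.90 to 8.24 untreated, with no overlap, and its change of 0.74 ± 0.27 did not pass (limma adjusted p = 0.128).

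Among exchange factors, Rasgrp2 had the strongest response to SGC0946 of any member. It encodes CalDAG-GEFI, which is activated by calcium and diacylglycerol and acts mainly on RAP and also on some RAS proteins. Its log2 intensity was 10.27, 10.20, 10.21 and 9.79 in untreated RH-RAS lines 1 to 4, 8.08 and 7.96 in treated lines 1 and 3, 11.08 in MLL-AF9 and 10.61, 10.60 and 10.46 in NUP98-JARID1A lines 1 to 3. Both treated arrays lay far below all others, and untreated line 4 was the lowest untreated line. The fall was 4.64-fold (−2.21 ± 0.14 on the log2 scale, limma adjusted p = 0.00105), with −2.18 in line 1 and −2.25 in line 3, and it passed under every alternative run (highest limma adjusted p = 0.0286). All 4 Rasgrp2 probe sets above the filter had lower means after treatment, with differences of −0.42 to −2.21, and all but the first passed when probe sets were fitted singly (limma adjusted p = 0.130 for that one). In NUP98-JARID1A lines the probe set used was higher by 0.44 ± 0.13 (limma adjusted p = 0.0241), but the other 3 differed by −0.47, −0.27 and 0.03, so the direction there depends on the probe set. The call was lost without NUP98-JARID1A line 1 or line 2 (highest limma adjusted p = 0.0629).

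The SOS factors, which receptor kinases recruit to activate RAS, were lower in NUP98-JARID1A lines and showed no called change with SGC0946. Sos2 read 9.33, 9.57, 9.75 and 9.72 in untreated RH-RAS lines 1 to 4, 8.96 and 9.25 in treated lines 1 and 3, 9.22 in MLL-AF9 and 8.87, 7.68 and 8.60 in NUP98-JARID1A lines 1 to 3. Each NUP98-JARID1A line lay below every untreated RH-RAS line, line 2 furthest. The difference was −1.21 ± 0.27 (limma adjusted p = 0.00805), while the SGC0946 change of −0.44 ± 0.36 did not pass (limma adjusted p = 0.511). For Sos1 the arrays gave 9.68, 9.70, 9.81 and 9.90 in untreated RH-RAS lines 1 to 4, 9.66 and 9.69 in treated lines 1 and 3, 9.17 in MLL-AF9 and 9.50, 9.29 and 9.06 in NUP98-JARID1A lines 1 to 3. Here too the NUP98-JARID1A and untreated ranges did not overlap, and the difference was −0.49 ± 0.12 (limma adjusted p = 0.0111). Its other probe sets differed by −1.57 and 0.07.

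Rasgrp4, an exchange factor of mast cells and myeloid cells, had log2 intensities of 6.45, 6.57, 6.84 and 6.53 in untreated RH-RAS lines 1 to 4, 7.08 and 7.15 in treated lines 1 and 3, 6.35 in MLL-AF9 and 7.31, 6.97 and 7.46 in NUP98-JARID1A lines 1 to 3. NUP98-JARID1A lines and treated lines lay above every untreated line. The NUP98-JARID1A difference of 0.65 ± 0.14 passed (limma adjusted p = 0.00739) and the SGC0946 change of 0.47 ± 0.18 did not (limma adjusted p = 0.149).

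Adaptors link receptors to SOS and PI3K, and 3 of the 4 tested here, all but the phosphatase gene Ptpn11, were higher in NUP98-JARID1A lines. Gab2, a docking protein that binds Grb2, Shp2 and the PI3K regulatory subunit, had log2 intensities of 7.54, 7.44, 7.74 and 8.29 in untreated RH-RAS lines 1 to 4, 9.14 and 9.04 in treated lines 1 and 3, 9.12 in MLL-AF9 and 9.99, 10.22 and 10.25 in NUP98-JARID1A lines 1 to 3. Every other group lay above the untreated RH-RAS lines, of which line 4 was the highest. Gab2 was 5.29-fold higher in NUP98-JARID1A lines (2.40 ± 0.20 on the log2 scale, limma adjusted p = 0.000123), rose by 1.45 ± 0.25 with SGC0946 (limma adjusted p = 0.0145), and was 1.37 above the RH-RAS mean in MLL-AF9. Its other probe sets gave 0.51 and 0.43 with SGC0946, and neither passed (limma adjusted p = 0.0605 and 0.164). The same pair differed by 0.09 and 1.53 in NUP98-JARID1A lines.

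Shc1, an adaptor phosphorylated by receptor kinases, was at 8.82, 8.60, 8.93 and 9.11 in untreated RH-RAS lines 1 to 4, 9.21 and 9.28 in treated lines 1 and 3, 9.12 in MLL-AF9 and 10.17, 9.68 and 9.73 in NUP98-JARID1A lines 1 to 3. The NUP98-JARID1A lines lay apart from all other arrays, 1.99-fold above untreated RH-RAS (1.00 ± 0.16 on the log2 scale, limma adjusted p = 0.00190). Grb2, which carries SOS to phosphorylated receptors, gave 10.55, 10.54, 10.66 and 10.49 in untreated RH-RAS lines 1 to 4, 10.95 and 11.02 in treated lines 1 and 3, 10.86 in MLL-AF9 and 10.96, 11.21 and 11.06 in NUP98-JARID1A lines 1 to 3. Untreated RH-RAS lines were the lowest arrays. The NUP98-JARID1A difference was 0.52 ± 0.09 (limma adjusted p = 0.00230), with 0.47 on the other probe set, and the SGC0946 change of 0.38 ± 0.11 did not pass (limma adjusted p = 0.0644). Ptpn11, the gene of the phosphatase Shp2, differed by 0.16 ± 0.07 in NUP98-JARID1A lines and did not pass (limma adjusted p = 0.0923). Its other probe sets were lower there, at −0.69 and −2.44, and passed when probe sets were fitted singly (limma adjusted p = 0.00697 and 1.16e-05).

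GTPase activators, the off switch of RAS, moved in different directions on the probe sets used. The only called rise among them, that of Rasa2 in NUP98-JARID1A lines, turned with the probe set. Rasa2, of the GAP1 family, had log2 intensities of 9.27, 9.42, 9.57 and 9.05 in untreated RH-RAS lines 1 to 4, 8.62 and 8.67 in treated lines 1 and 3, 10.29 in MLL-AF9 and 9.79, 9.72 and 9.65 in NUP98-JARID1A lines 1 to 3. The treated arrays were the lowest and MLL-AF9 the highest, and line 4 was the lowest untreated line. Rasa2 fell with SGC0946 by 0.78 ± 0.15 (limma adjusted p = 0.0200), and its other probe set gave −1.18 (limma adjusted p = 0.00931). In NUP98-JARID1A lines the probe set used was higher by 0.39 ± 0.13 (limma adjusted p = 0.0360) and the other lower, at −0.46. That call was lost without untreated line 1, 2 or 4 or any NUP98-JARID1A line (highest limma adjusted p = 0.0888).

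Rasa1, the p120 RasGAP, read 10.31, 10.38, 10.33 and 10.38 in untreated RH-RAS lines 1 to 4, 10.13 and 10.16 in treated lines 1 and 3, 10.59 in MLL-AF9 and 9.85, 9.78 and 9.70 in NUP98-JARID1A lines 1 to 3. The NUP98-JARID1A lines lay below all other arrays, with a difference from untreated RH-RAS of −0.57 ± 0.07 (limma adjusted p = 0.000591). Its other probe sets gave −1.28 and −0.06. Rasa3 was at 10.02 to 10.33 untreated and 10.65 and 10.61 treated, without overlap, and its change of 0.31 ± 0.09 did not pass (limma adjusted p = 0.0722). It was lower in MLL-AF9, at 9.33. Nf1, the neurofibromin gene, did not pass in either comparison, with 0.20 ± 0.12 for SGC0946 and 0.23 ± 0.10 for NUP98-JARID1A (limma adjusted p = 0.350 and 0.0963).

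In the ERK cascade nothing passed with SGC0946, and the changes of Braf, Map2k1, Map2k2 and the scaffold Ksr1 ran from −0.22 to 0.10. Braf, a RAF kinase, gave 8.92, 8.85, 9.03 and 8.64 in untreated RH-RAS lines 1 to 4, 8.75 and 8.78 in treated lines 1 and 3, 9.63 in MLL-AF9 and 9.67, 9.42 and 9.76 in NUP98-JARID1A lines 1 to 3. All NUP98-JARID1A lines and MLL-AF9 lay above every RH-RAS array, and the NUP98-JARID1A difference was 0.75 ± 0.12 (limma adjusted p = 0.00188). The other 5 Braf probe sets above the filter differed by −0.26 to 0.19 and none passed, so this difference was seen on 1 probe set of 6. Ksr1, a scaffold for RAF and MEK, stood at 7.63, 7.56, 7.73 and 7.53 in untreated RH-RAS lines 1 to 4, 7.61 and 7.40 in treated lines 1 and 3, 7.80 in MLL-AF9 and 8.17, 7.78 and 7.96 in NUP98-JARID1A lines 1 to 3. The NUP98-JARID1A lines lay just above the untreated range, by 0.36 ± 0.11 (limma adjusted p = 0.0261), while the other Ksr1 probe set gave −0.07. The Ksr1 call was lost without untreated line 1, 2 or 4 or NUP98-JARID1A line 1 or 3 (highest limma adjusted p = 0.0684). The MEK genes Map2k1 and Map2k2 differed by −0.24 ± 0.14 and 0.08 ± 0.10 and did not pass (limma adjusted p = 0.180 and 0.519). The other Map2k2 probe set was higher by 0.42 and passed when probe sets were fitted singly (limma adjusted p = 0.00906).

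**Figure D2:**
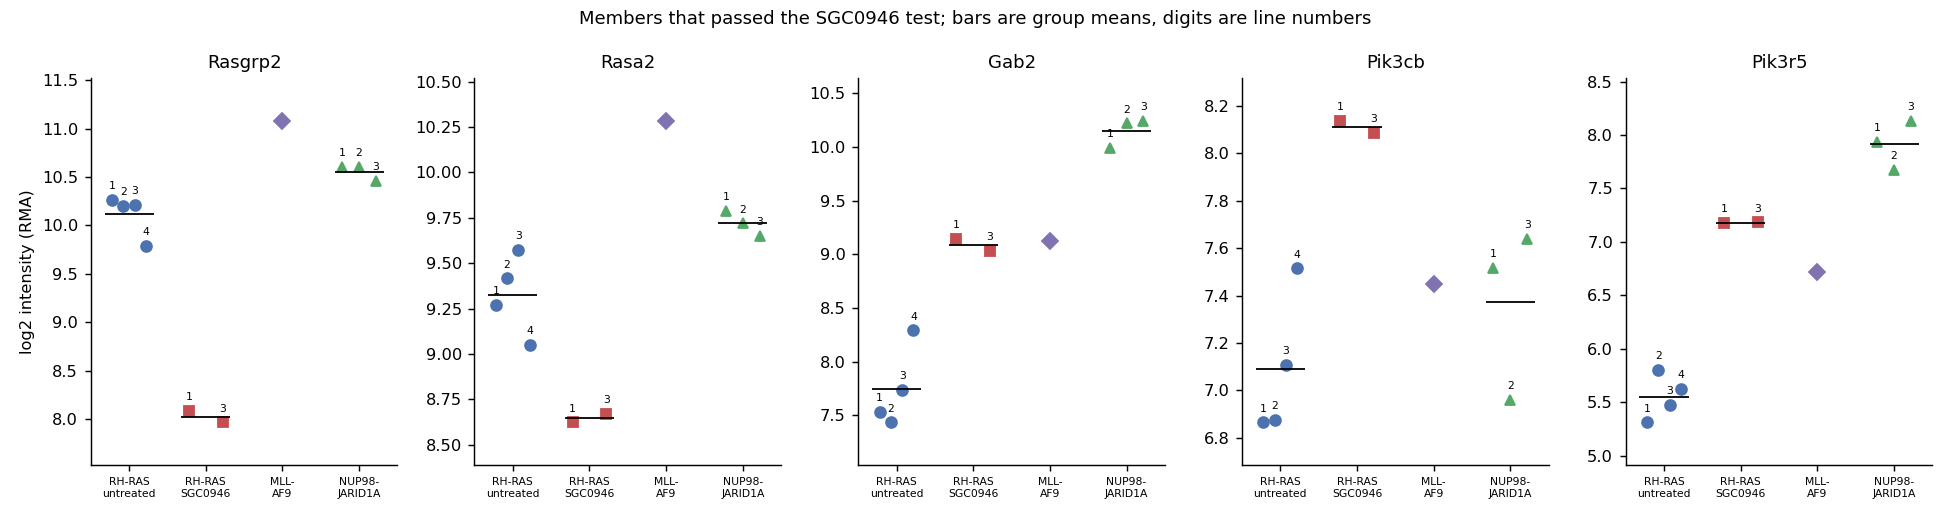
Log2 intensity (y axis, a scale of its own in each panel) of the 5 members that passed limma for SGC0946, on all 10 arrays by group. Digits are line numbers and bars are group means. Treated lines 1 and 3 lie apart from all 4 untreated lines in each panel, and line 4 lies between the other untreated lines and the treated arrays in 4 of the 5.

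Line 4 received no inhibitor. Its values lay between lines 1 to 3 and the treated arrays for Rasgrp2, Gab2, Rasa2 and Pik3cb, 4 of the 5 members called, as they did for 76.2% of all 1434 genes called. The log2 summed level of the macrophage markers was 13.31 in line 4 and 12.05 to 12.07 in lines 1 to 3, and that of the T and NK cell markers was 11.43 against 11.80 to 12.09. In both lists line 4 lay between lines 1 to 3 and the treated arrays, and the part of this in the members' values was not tested.

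The genes switched on by ERK divided between the conditions. Etv5, an ETS transcription factor of the PEA3 group, had log2 intensities of 10.79, 10.88, 11.19 and 11.37 in untreated RH-RAS lines 1 to 4, 11.03 and 11.10 in treated lines 1 and 3, 7.20 in MLL-AF9 and 9.15, 9.66 and 9.32 in NUP98-JARID1A lines 1 to 3. The RH-RAS arrays, treated or not, lay together, NUP98-JARID1A lines were lower and MLL-AF9 lower still. Etv5 was 3.20-fold lower in NUP98-JARID1A lines (−1.68 ± 0.18 on the log2 scale, limma adjusted p = 0.000300), with −2.23 and −1.67 on its other probe sets. It was 14.5-fold lower in MLL-AF9 and did not pass with SGC0946 (0.08 ± 0.23, limma adjusted p = 0.884).

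Emp1, an epithelial membrane protein gene induced by growth factors, read 9.85, 9.97, 10.35 and 10.84 in untreated RH-RAS lines 1 to 4, 11.57 and 11.70 in treated lines 1 and 3, 5.29 in MLL-AF9 and 7.86, 8.16 and 9.25 in NUP98-JARID1A lines 1 to 3. Treated lines were the highest, MLL-AF9 was the lowest and below the array median, and NUP98-JARID1A lines lay between MLL-AF9 and untreated RH-RAS. The NUP98-JARID1A difference was −1.83 ± 0.37 (limma adjusted p = 0.00489) and that of MLL-AF9 was −4.96, or 31.2-fold lower, without a test. The SGC0946 change of 1.53 ± 0.47 did not pass (limma adjusted p = 0.0783) although it was 1.71 in line 1 and 1.35 in line 3. The other Emp1 probe set gave 0.13 in MLL-AF9, the opposite sign, and differed less in the other comparisons, by −0.21 in NUP98-JARID1A lines and 0.17 with SGC0946.

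Epha2, an ephrin receptor kinase induced through ERK, gave 8.06, 8.08, 8.01 and 9.11 in untreated RH-RAS lines 1 to 4, 8.46 and 8.58 in treated lines 1 and 3, 7.04 in MLL-AF9 and 6.85, 7.0 and 7.13 in NUP98-JARID1A lines 1 to 3. Line 4 was the highest of all arrays, 1.06 above lines 1 to 3, and NUP98-JARID1A lines and MLL-AF9 were the lowest. The difference of NUP98-JARID1A from RH-RAS was −1.32 ± 0.27 (limma adjusted p = 0.00546), and that of MLL-AF9 was −1.28. Etv4, the PEA3 factor closest to Etv5, stood at 8.32, 8.16, 8.42 and 8.34 in untreated RH-RAS lines 1 to 4, 7.43 and 7.10 in treated lines 1 and 3, 7.15 in MLL-AF9 and 7.58, 8.07 and 6.77 in NUP98-JARID1A lines 1 to 3. Every array outside the untreated RH-RAS lines was below them. Etv4 differed by −0.84 ± 0.27 in NUP98-JARID1A lines (limma adjusted p = 0.0357), a call lost when untreated line 1, 2, 3 or 4 or NUP98-JARID1A line 1 was left out (highest limma adjusted p = 0.0842), and its SGC0946 change of −1.10 ± 0.36 did not pass (limma adjusted p = 0.0979). Phlda1, a pleckstrin-homology protein gene induced by ERK, was at 4.96 to 5.59 untreated and 6.17 and 6.35 treated, and the change of 0.81 ± 0.25 did not pass (limma adjusted p = 0.0830). Its untreated RH-RAS values lay below the array median and are not shown to be above background. It passed the filter only through the treated arrays and NUP98-JARID1A line 3. Among the output genes, treated lines read above every untreated RH-RAS array for Emp1 and Phlda1 and below for Etv4, none of them past the test. Over all genes, 48.0% had both treated arrays outside that untreated range.

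**Figure D3:**
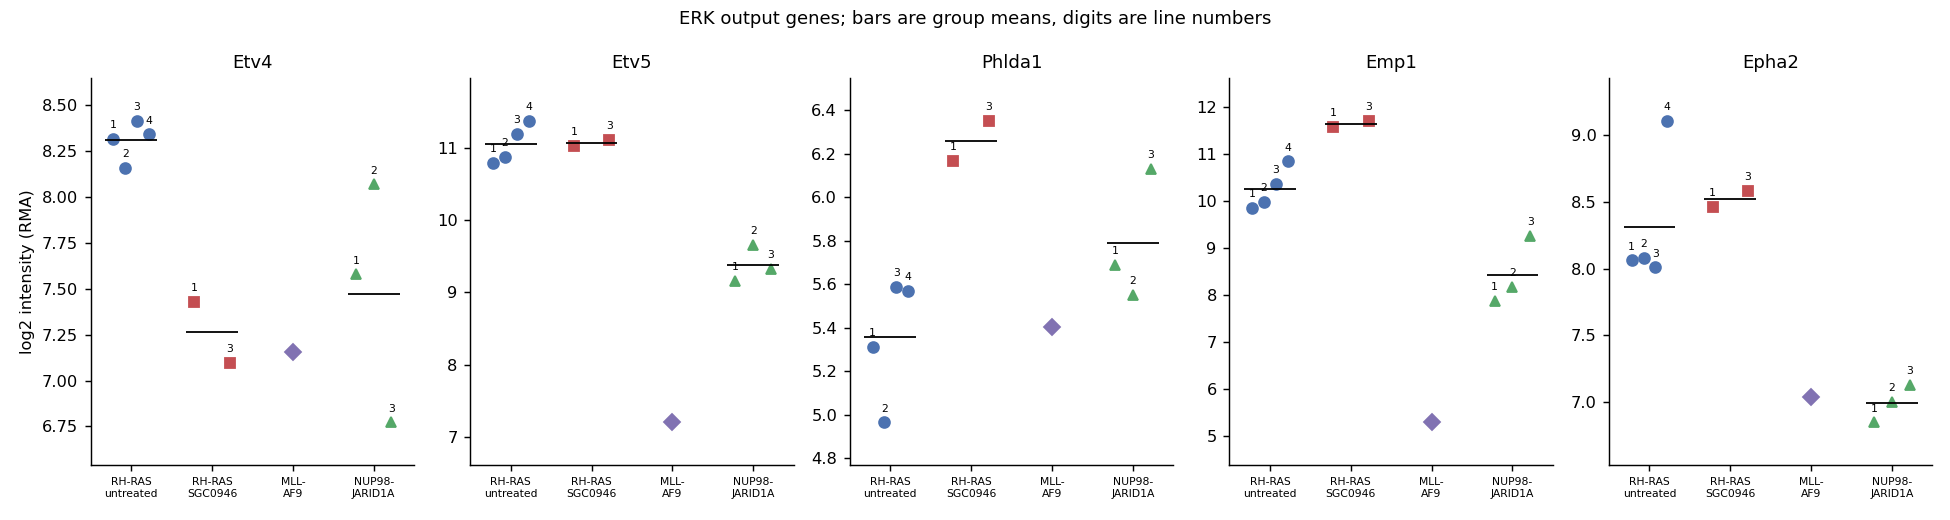
Log2 intensity (y axis, a scale of its own in each panel) of the 5 output genes of ERK on all 10 arrays by group, with line numbers as digits and group means as bars. Etv5, Emp1 and Epha2 are lower in all NUP98-JARID1A lines and in MLL-AF9 than in every untreated RH-RAS line, and treated lines 1 and 3 are the highest arrays for Emp1.

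The promoters of Emp1 and Etv5, the output genes furthest below RH-RAS in MLL-AF9, are shown because ERK is known to act on genes through AP-1 and ETS factors. Each is the 250 bases before the most upstream RefSeq start in GRCm38.p6, read 5′ to 3′ on the gene's strand, chr6:135362681-135362930 (+) for Emp1 and chr16:22439571-22439820 (−) for Etv5. Capitals mark matches to the AP-1 motif TGANTCA.
Emp1: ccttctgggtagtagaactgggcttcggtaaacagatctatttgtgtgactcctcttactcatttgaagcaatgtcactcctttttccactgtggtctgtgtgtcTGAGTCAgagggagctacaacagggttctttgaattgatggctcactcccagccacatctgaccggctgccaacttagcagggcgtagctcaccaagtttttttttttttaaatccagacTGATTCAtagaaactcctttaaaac
Etv5: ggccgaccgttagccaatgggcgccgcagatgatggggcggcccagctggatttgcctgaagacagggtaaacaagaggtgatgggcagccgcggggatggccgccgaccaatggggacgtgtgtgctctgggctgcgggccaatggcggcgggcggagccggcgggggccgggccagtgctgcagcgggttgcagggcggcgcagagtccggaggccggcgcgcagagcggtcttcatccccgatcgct
Emp1 held 2 matches to TGANTCA and Etv5 held 0, where 6.73% of 32536 mouse promoters of this length hold at least 1. The ETS cores GAGGAA and CCGGAA, found in 23.4% and 12.1% of promoters, were in neither window on either strand. GC content was 44.4% for Emp1 and 71.2% for Etv5. Of 46 promoters that matched 31 members by symbol, 8.7% held TGANTCA, 17.4% GAGGAA and 19.6% CCGGAA. A match describes the letters only, and no binding was measured.

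Within PI3K, Pik3r5 and Pik3cb rose with SGC0946 on the probe sets used, and Pik3cd rose on 3 probe sets other than the one used. Pik3r5 encodes p101, the regulatory subunit that couples the gamma form of PI3K to G protein-coupled receptors. Its log2 intensity was 5.31, 5.80, 5.47 and 5.62 in untreated RH-RAS lines 1 to 4, 7.18 and 7.18 in treated lines 1 and 3, 6.72 in MLL-AF9 and 7.94, 7.67 and 8.13 in NUP98-JARID1A lines 1 to 3. Every untreated RH-RAS line lay at or below its array median (5.72 to 5.82 over the arrays), so that level is not shown to be above background and the folds below are lower bounds if it is not. All other arrays lay above the untreated lines without overlap. Pik3r5 passed the filter only through those other arrays. The filter thus selected it for these differences, and the adjusted p-values given for it carry that limit. Its calls in both comparisons stood when no filter was applied. Pik3r5 rose 3.45-fold with SGC0946 (1.79 ± 0.16 on the log2 scale, limma adjusted p = 0.00298), by 1.87 in line 1 and 1.71 in line 3, and passed under every alternative run that tested it (highest limma adjusted p = 0.0482). It was 5.14-fold higher in NUP98-JARID1A lines (2.36 ± 0.15, limma adjusted p = 4.01e-05) and 1.17 above RH-RAS in MLL-AF9. The array has 1 probe set for it.

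Pik3cb, the catalytic p110 beta subunit, was at 6.87, 6.87, 7.11 and 7.52 in untreated RH-RAS lines 1 to 4, 8.14 and 8.09 in treated lines 1 and 3, 7.45 in MLL-AF9 and 7.52, 6.96 and 7.64 in NUP98-JARID1A lines 1 to 3. Treated arrays were the highest, line 4 was the highest untreated line, and NUP98-JARID1A lines overlapped the untreated range. The SGC0946 change was 1.13 ± 0.27 (limma adjusted p = 0.0382), which did not pass with line as a block (limma adjusted p = 0.0721), and the NUP98-JARID1A difference of 0.28 ± 0.22 did not pass (limma adjusted p = 0.309). The gamma catalytic subunit Pik3cg, the partner of p101, was at 10.11 and 10.05 in treated lines against 9.38 to 9.86 untreated, and its changes of 0.43 ± 0.35 with SGC0946 and 0.56 ± 0.27 in NUP98-JARID1A did not pass (limma adjusted p = 0.503 and 0.120). The other Pik3cg probe set was higher in NUP98-JARID1A lines by 0.63 and passed when probe sets were fitted singly (limma adjusted p = 0.0206).

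The SGC0946 changes of Rasgrp2 and Pik3r5 held in every alternative that tested them and went in opposite directions. Their promoters are shown for their composition. They are the same 250-base windows from RefSeq in GRCm38.p6, chr19:6399625-6399874 (+) for Rasgrp2 and chr11:68431875-68432124 (+) for Pik3r5, and hold none of the 3 motifs.
Rasgrp2: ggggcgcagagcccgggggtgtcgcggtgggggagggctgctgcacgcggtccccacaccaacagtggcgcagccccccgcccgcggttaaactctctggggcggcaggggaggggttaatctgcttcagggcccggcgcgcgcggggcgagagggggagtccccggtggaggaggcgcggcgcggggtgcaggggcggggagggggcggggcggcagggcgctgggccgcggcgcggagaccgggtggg
Pik3r5: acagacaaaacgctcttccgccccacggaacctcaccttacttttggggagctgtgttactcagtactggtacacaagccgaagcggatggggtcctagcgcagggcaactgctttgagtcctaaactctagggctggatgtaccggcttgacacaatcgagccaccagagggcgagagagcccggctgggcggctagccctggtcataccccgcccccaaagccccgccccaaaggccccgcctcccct
The Rasgrp2 window is 79.6% GC and that of Pik3r5 61.6%.

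Pik3cd, the delta catalytic subunit of leukocytes, gave the largest NUP98-JARID1A difference of any tested member and the widest spread among probe sets. Its log2 intensity on that probe set was 12.39, 12.50, 12.56 and 12.57 in untreated RH-RAS lines 1 to 4, 11.93 and 12.42 in treated lines 1 and 3, 12.09 in MLL-AF9 and 7.77, 8.50 and 8.22 in NUP98-JARID1A lines 1 to 3. NUP98-JARID1A lines lay far below all other arrays, 20.2-fold below untreated RH-RAS (−4.34 ± 0.16 on the log2 scale, limma adjusted p = 5.13e-06). The other 3 probe sets above the filter differed by −0.24, −0.14 and −0.12 in the same lines. With SGC0946 the probe set used gave −0.30 ± 0.25 and did not pass (limma adjusted p = 0.514), while the other 3 rose by 0.72, 0.93 and 0.93 and passed when probe sets were fitted singly (limma adjusted p = 0.0348, 0.0435 and 0.0238). Which transcripts each probe set reads is not given in the sources used here.

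**Figure D4:**
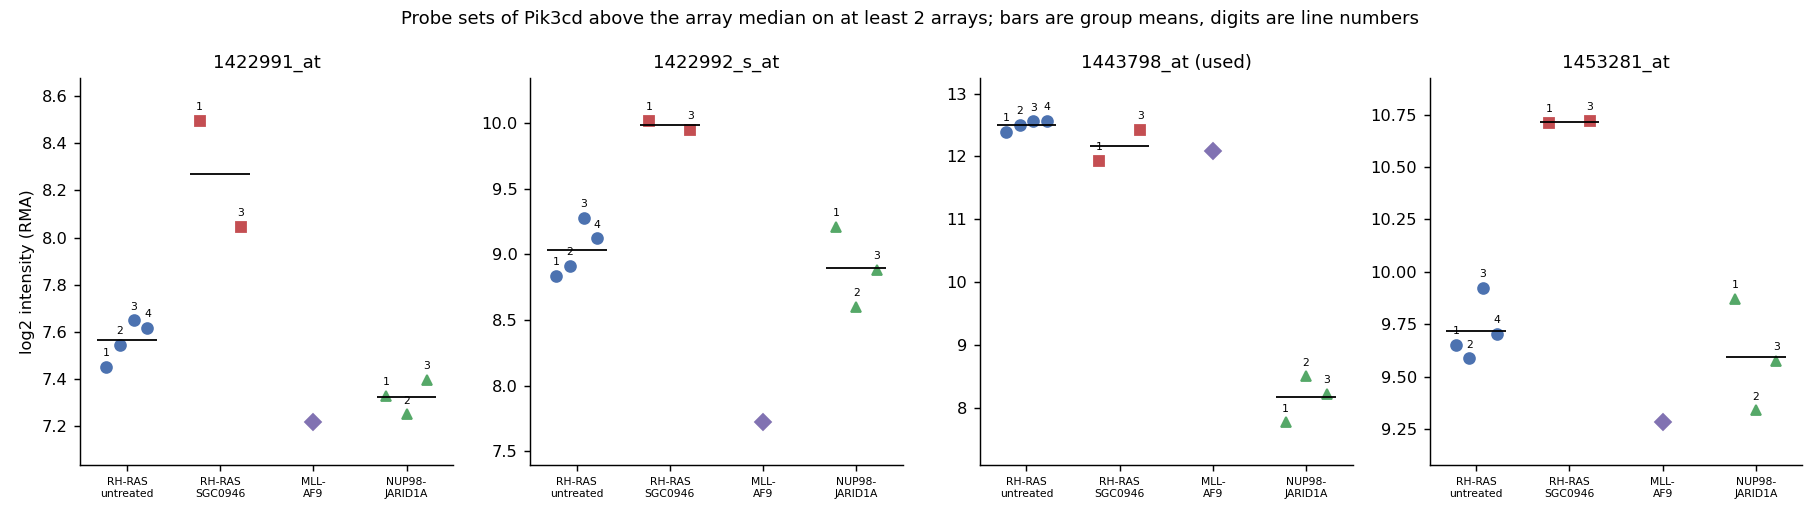
Log2 intensity (y axis, a scale of its own in each panel) of the 4 Pik3cd probe sets above the filter, on all 10 arrays by group, with line numbers as digits and group means as bars. The probe set used for the gene is low in all 3 NUP98-JARID1A lines, whereas the other 3 are high in treated RH-RAS lines and low in MLL-AF9.

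Pik3r1, which encodes the p85 alpha regulatory subunit, read 10.83, 10.80, 10.98 and 10.76 in untreated RH-RAS lines 1 to 4, 10.70 and 10.79 in treated lines 1 and 3, 11.07 in MLL-AF9 and 9.97, 10.53 and 10.07 in NUP98-JARID1A lines 1 to 3. NUP98-JARID1A lines lay below all RH-RAS arrays, with a difference of −0.65 ± 0.14 (limma adjusted p = 0.00706). Of its other probe sets, 2 were lower too, at −1.26 and −0.88, and 1 was not, at 0.15. Pik3ca, the alpha catalytic subunit, differed by 0.22 ± 0.09 and did not pass (limma adjusted p = 0.0765), yet 3 of its other probe sets were lower, at −0.80, −0.91 and −1.38. Akt1, the kinase downstream of PI3K, was at 11.49 and 11.51 in treated lines and 11.18 to 11.30 in untreated lines, and its changes of 0.28 ± 0.12 with SGC0946 and 0.05 ± 0.09 in NUP98-JARID1A did not pass (limma adjusted p = 0.187 and 0.682). Its other probe sets above the filter differed by −0.08 and −0.46 in NUP98-JARID1A lines, and the second passed when fitted singly (limma adjusted p = 0.0433).

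Of the 31 tested members, 21 had more than 1 probe set above the filter. The sign of the SGC0946 change was the same on all of them for 15 members, including the 3 called ones with several, Rasgrp2, Gab2 and Rasa2. In NUP98-JARID1A lines it was the same for 10, including 7 of 14 called.

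**Figure D5:**
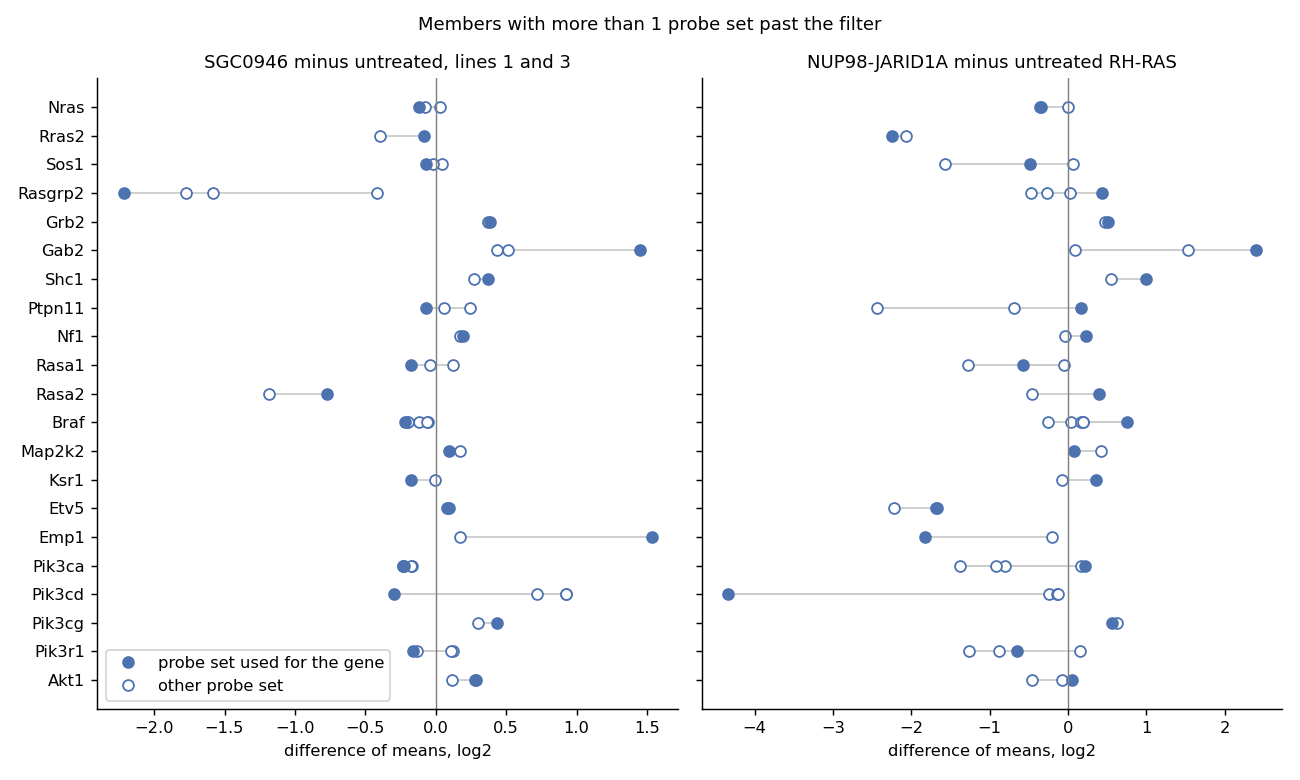
Difference of group means (x axis, log2) for every probe set above the filter, in the 21 members with more than 1, for SGC0946 in lines 1 and 3 (left) and NUP98-JARID1A against untreated RH-RAS (right). Filled points are the probe sets used. The points of a gene spread more widely in the NUP98-JARID1A panel, where Pik3cd runs from −4.34 to −0.12 and Ptpn11 from −2.44 to 0.16.

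Other genes of these pathways were counted from 5 lists of 106 genes, 89 of which were tested. Of those named below, Rgl1, Gab3 and Spry4 lay above the array median on 6 arrays each, Irs1 on 4 and Grap on 3. They passed the filter through the arrays where they were high, and their adjusted p-values carry that limit. With SGC0946, 19 passed limma (21.3%, beside the 12.0% of all genes), 9 higher and 10 lower, and 11 passed with the line as a block. None of 13 genes of the MAPK cascade was among them. In the RAS switch list 4 of 18 passed, 3 of them higher, among them Rgl1, a RAL exchange factor that RAS binds (2.57 ± 0.56), and the GTPase activator Rasa4 (1.77 ± 0.31, limma adjusted p = 0.0142). The call for Rgl1 (limma adjusted p = 0.0286) was lost with the line as a block, which left 2 of the 18, at an adjusted p = 0.0596.

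Adaptors divided, with 3 higher and 4 lower of 16, and with the line as a block 4 passed, 1 higher and 3 lower. Lat, a T cell adaptor, fell by 1.54 ± 0.32 and Plcg1, a phospholipase that makes diacylglycerol, by 1.06 ± 0.14 (limma adjusted p = 0.0242 and 0.00632). T and NK cell markers were lower in the same arrays, 2 of 7 called, with a log2 summed level of 10.41 to 10.51 in treated against 11.43 to 12.09 in untreated RH-RAS lines, and their part in this was not tested. In the PI3K list 3 of 23 passed, and the p84 subunit gene Pik3r6, the alternative partner of the gamma subunit, rose by 0.68 ± 0.11 (limma adjusted p = 0.0110), whereas the insulin receptor substrate gene Irs1 fell by 1.19 ± 0.17 (limma adjusted p = 0.00696). The genes of p101 and p84, both regulators of PI3K gamma, were thus higher after treatment.

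Among 19 feedback and ERK output genes 2 rose and 3 fell with SGC0946. Fos, a component of AP-1, rose by 2.30 ± 0.19 and the early growth response gene Egr1 fell by 2.45 ± 0.48 (limma adjusted p = 0.00293 and 0.0197). Dusp6, the phosphatase that acts on ERK, fell by 0.97 ± 0.13 (limma adjusted p = 0.00696). A block by line left 3 of these calls, Fos, Egr1 and Dusp6. In NUP98-JARID1A lines 13 of the 19 passed (68.4%, beside 51.0% of all genes), 3 higher and 10 lower, where 32.5% and 18.5% of all genes were. Spry4, a Sprouty inhibitor of receptor signalling, was at −4.25 ± 0.30 from untreated RH-RAS on the log2 scale, Egr1 at −1.91 ± 0.49, Dusp6 at −1.38 ± 0.11 and the cyclin gene Ccnd1 at −1.68 ± 0.27 (limma adjusted p = 5.88e-05, 0.0136, 0.000107 and 0.00193).

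Over all 5 lists, 46 of 89 genes passed in NUP98-JARID1A lines (51.7%, beside the 51.0% of all genes), 26 higher and 20 lower. Adaptors (6 higher and 4 lower of 16) included Grap and Gab3, relatives of Grb2 and Gab2, at 2.64 ± 0.22 and 1.65 ± 0.18 (limma adjusted p = 0.000119 and 0.000305). Both passed the filter through the arrays where they were high, as given above. The PI3K list had 9 higher and 3 lower of 23, with the phosphatase gene Inpp4a at 2.08 ± 0.17, Pik3r6 at 1.43 ± 0.08 and Irs1 at −1.81 ± 0.14 (limma adjusted p = 9.57e-05, 2.65e-05 and 8.3e-05). In the RAS switch list 8 of 18 passed and in the MAPK cascade list 3 of 13. In MLL-AF9, 24 of 89 genes lay past the fold, beside 13.0% of all genes, 4 above RH-RAS and 20 below.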

How the data were processed

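Total RNA of 10 cultures was hybridised to 1 array each. The authors deposited a log2 intensity for each probe set, computed with RMA per the submitters' processing notes, which corrects background, normalises quantiles and summarises probes. Its version is not given in the sources used here. RMA compresses low intensities, so changes near the bottom of the range are understated. No further normalisation was applied; precision is limited by how few arrays there are.

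Each array held 45101 probe sets, 64 of them controls. The annotation gave 34958 of them 1 gene symbol and 932 several, and did not list 9211. Of the first, 99.4% had an Entrez identifier in the RefSeq gene table of GRCm38.p6. Promoter sequences are RefSeq's, and motifs were searched on both strands.

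Differences were tested with limma 3.58.1 (lmFit and eBayes) in R 4.3.3, with Benjamini-Hochberg adjusted p over 11993 genes at 0.05. The SGC0946 effect came from all 10 arrays with 5 coefficients, so lines 2 and 4 and the NUP98-JARID1A lines enter only its spread. NUP98-JARID1A was compared in the 8 arrays without inhibitor. Treated and untreated arrays of 1 number come from the same line and pair (deviations of lines 1 and 3, r = 0.29). The NUP98-JARID1A lines are not called independently derived in the labels, so their p-values measure the spread between these samples, which may be technical. The fits were tested on simulated data.

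The members and lists were chosen with earlier results of these data known. All members called or past the fold were given on every array, and other pathway genes were taken from those with the 8 largest rises and 8 largest falls among called genes without overlap. Alternatives covered the filter, the probe set, the normalisation, the variance model, the controls, the block and each array left out. Fitting every probe set on its own was chosen after seeing the data.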

Additional observations from a re-analysis of the deposited data

Results flagged for a closer look

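In 3 members 1 of the 4 untreated RH-RAS lines stood apart from the others by Dixon's ratio of the gap to the range, among 34 members measured (8.82%, beside 7.14% of all genes tested). All 3 passed the filter, whereas the 34 include members that did not, so the shares are over unlike sets. Chance flags about 1 group in 20. Epha2 was 9.11 in line 4 and 8.01 to 8.08 in lines 1 to 3 (ratio 0.935). Rasgrp2 was 9.79 in line 4 and 10.20 to 10.27 in the others (ratio 0.869), on the side of the treated arrays. Rras2 was 9.26 in line 3 and 9.04 to 9.08 in the others (ratio 0.854), a gap that is small beside its spread among NUP98-JARID1A lines.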

How the results depend on the processing

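For SGC0946, the 5 members called became 11 with all 4 untreated lines as the control (15.7% of all genes) and 15 when only the 4 arrays of lines 1 and 3 were fitted (31.2% of all genes), each time with the same 5 among them. They ranged from 2 to 7 with an array left out, and were 4 with the line as a replicate block. Over all genes, 1434 calls became 866 with that block, 3746 with only those 4 arrays and 28 to 1855 with an array left out, lowest without treated line 3. The cause was not tested. For NUP98-JARID1A, the 19 members called ranged from 16 to 18 with a line left out, beside 42.7% to 49.2% of all genes. They were 16 with the replicate number as a block, which took the calls over all genes from 6113 to 4938. Those numbers name separate lines, whose deviations correlated at −0.05, −0.02 and 0.07 for the same number, and 2 of 6 arrays correlated best with their own number. With each probe set fitted on its own, at least 1 probe set passed for 6 members with SGC0946 and for 25 in NUP98-JARID1A lines. Of all probe sets fitted, 8.93% and 51.4% passed. A member with several probe sets has more chances to pass, so these counts and shares are in unlike units. The 25 include Rasgrp3, whose probe set passed the filter only through NUP98-JARID1A lines 2 and 3.

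The direction of some NUP98-JARID1A differences turned with the probe set. With the mean of all probe sets Braf was at −0.0064, Pik3ca at −0.49, Ptpn11 at −0.99, Rasa2 at −0.036 and Rasgrp2 at −0.068. With the probe set of largest variance Akt1 was at −0.46, Braf at −0.26, Pik3ca at −1.38 and Ptpn11 at −2.44. In MLL-AF9, 7 members past the fold became 4 with the mean of probe sets (12.2% of all genes) and 2 at a threshold of 2 on the log2 scale (4.35%). They were 7 to 8 with a line left out (12.9% to 13.6%). In line 4, 1 became 0 at the threshold of 2, beside 0.183% of all genes.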

Other observations

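Some genes outside the tests varied among the NUP98-JARID1A lines. Rasgrp3, a diacylglycerol-responsive exchange factor left out by the filter on its chosen probe set, has another probe set with log2 intensities of 3.35 to 3.62 in untreated RH-RAS lines, 5.09 and 5.04 in treated lines, 3.60 in MLL-AF9 and 4.48, 6.89 and 7.32 in NUP98-JARID1A lines 1 to 3. On that probe set the NUP98-JARID1A lines were higher by 2.73 ± 0.61. It lay above the array median only in NUP98-JARID1A lines 2 and 3 and passed the filter through them alone. The filter thus selected it for this difference, and no test of it is given. The treated lines, all below the array median, did not pass (limma adjusted p = 0.289 with probe sets fitted singly). Gab1, a docking protein related to Gab2, stayed below the array median on all arrays on each of its 3 probe sets, as did Rasgrp1 on its 4.

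The following genes were singled out after their values were seen. Pik3ap1, an adaptor that brings PI3K to receptors, had a log2 intensity of 8.0 in NUP98-JARID1A line 1 against 11.00 and 10.98 in lines 2 and 3, and 11.27 to 11.53 in untreated RH-RAS lines. Phlpp1, a phosphatase that acts on AKT, was at 7.51, 6.42 and 8.85 in NUP98-JARID1A lines 1 to 3 against 8.86 to 9.04 in untreated RH-RAS lines. NUP98-JARID1A line 1, the lowest line for Pik3ap1, was also the lowest for Rras2, whereas Phlpp1 was lowest in line 2.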
